A study of Mus musculus with 13 samples.

Results

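The 10 MP tumors of this RNA-seq series fell into 2 classes, whose members were chosen by the Krt8 RNA of each tumor, namely 6 keratin-expressing tumors (MP1, MP2, MP4, MP5, MP8 and MP9), each with at least 10 TPM (a share of all transcripts that sums to 1000000 in each library, per gene length), and 4 keratin-negative tumors (MP3, MP6, MP7 and MP10), each below 1 TPM. No tumor fell between the limits, so all 10 tumors of the 13 libraries were members of 1 class or the other, and the 3 libraries of WT ovaries serve as reference values only. The lowest keratin-expressing tumor held 30.4 TPM of Krt8 (MP2) and the highest keratin-negative tumor held 0.915 TPM (MP7). All 10 tumors came from the same procedure. The left ovary of wild-type C57BL/6 female mice, aged 8 to 12 wk, received by electroporation a plasmid for Cas9 and an sgRNA against Trp53 together with a MYC transposon and Sleeping Beauty transposase. The labels give the genotype as Myc;p53-/- EPO-GEMM and the treatment as non-treated for every tumor. RNA was taken from whole tumor tissue at the end point, and the WT ovaries came from untreated C57BL/6 mice. The labels name no cell type or promoter that restricts where in the ovary the plasmids act, and each tumor is 1 animal. In bulk tissue, fewer cells of a type and less RNA per cell cannot be told apart.

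Keratins are intermediate filament proteins that assemble only as pairs of a type II and a type I chain. Krt8 (type II) pairs with Krt18 or Krt19 (type I) in simple epithelia, the mesothelium and the surface layer of the ovary, and these keratins with the adhesion molecule Epcam are routine markers of carcinoma. When epithelial cells take on a mesenchymal state, repressors of the ZEB and SNAI families silence many such genes through E-box sequences in their promoters.

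The promoters of Krt8, Krt18 and Epcam are shown because Krt8 defines the split and the other two are markers that followed it. Each is the stretch of 250 bases before the transcription start in RefSeq on GRCm38.p6, written 5' to 3' on the strand of the gene. Capitals mark CAGGTG or its complement CACCTG, the E-box that ZEB and SNAI factors bind, and ACCGGT, the core of the motif of the GRHL epithelial factors. Krt8 is at chr15:102004343-102004592 on the minus strand, Krt18 at chr15:102027966-102028215 on the plus strand and Epcam at chr17:87635729-87635978 on the plus strand.
Krt8: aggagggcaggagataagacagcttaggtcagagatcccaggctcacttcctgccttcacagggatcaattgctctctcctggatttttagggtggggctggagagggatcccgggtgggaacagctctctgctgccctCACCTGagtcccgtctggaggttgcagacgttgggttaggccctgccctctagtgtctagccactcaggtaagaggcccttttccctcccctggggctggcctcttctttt
Krt18: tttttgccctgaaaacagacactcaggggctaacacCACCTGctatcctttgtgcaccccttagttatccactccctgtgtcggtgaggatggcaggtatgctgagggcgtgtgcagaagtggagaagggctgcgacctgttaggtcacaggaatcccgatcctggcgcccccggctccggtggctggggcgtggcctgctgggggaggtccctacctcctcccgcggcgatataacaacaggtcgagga
Epcam: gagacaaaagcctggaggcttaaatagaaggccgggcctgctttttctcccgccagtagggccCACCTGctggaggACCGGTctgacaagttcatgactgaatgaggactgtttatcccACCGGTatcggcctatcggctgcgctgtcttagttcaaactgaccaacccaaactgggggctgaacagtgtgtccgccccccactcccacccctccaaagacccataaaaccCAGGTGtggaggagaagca
The Krt8 window held 1 E-box, 111 bases before the start, and the Krt18 window held 1, 214 bases before it. Epcam held 2 E-boxes, at 19 and 187 bases, and 2 ACCGGT sites, at 131 and 174 bases. Among all 32851 such windows, 17.2% held the E-box on either strand and 1.86% held ACCGGT. A RefSeq window was found for 19 of the 25 genes made up of Krt8 and the genes that separated the classes (below). Of 15 windows of the genes that were higher in keratin-expressing tumors, 4 held the E-box and 1 held ACCGGT, and of 7 windows of the genes that were lower, 3 held the E-box and 2 held ACCGGT, the latter being overlapping windows of Syce2. These matches describe the letters of the windows and say nothing about binding.

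The description labels carry a library number of 10280, 10469 or 11445, which is called project 1, 2 or 3 here, although the labels do not say what it marks. Each project held tumors of both classes. Project 1 held MP1 and MP2 against MP3, project 2 held MP4 and MP5 against MP6, and project 3 held MP8 and MP9 against MP7 and MP10. The WT ovaries were all in project 1, so tumors of projects 2 and 3 are set beside WT values across projects. Reads assigned to genes, worked back from the TPM table, numbered between 3892690 and 17178256 in keratin-expressing tumors and between 5464497 and 19906507 in keratin-negative tumors. One library stood apart. In MP2 the 10 most abundant genes took 55.1% of all TPM, against 7.92% to 20.6% in the other 9 tumors, and mitochondrial genes took 15.4%, against 0.883% to 5.56%. Since TPM sums to the same total in each library, the other genes of MP2 are lowered, and list medians printed here that moved by over 1.5 times without MP2 are also given without it. The tumors had little RNA of steroid-producing ovarian cells. The summed TPM of 12 theca and luteal genes was between 65.3 and 1415 in the tumors, against a median of 33730 in WT ovaries.

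Krt18, the type I partner of Krt8, followed Krt8 in every tumor. It measured 90.9, 17.6, 496, 85.8, 41.3 and 264 TPM in MP1, MP2, MP4, MP5, MP8 and MP9, and 7.50, 7.10, 2.06 and 6.89 TPM in MP3, MP6, MP7 and MP10. The classes did not overlap, yet the RNA was still present in every keratin-negative tumor, at between 7 and 92 reads. The mean of log2(TPM + 1) was 3.92 ± 0.79 (SE, n = 6 and 4) higher in the keratin-expressing tumors. In WT ovaries Krt18 averaged 53.7 TPM and Krt8 63.7 TPM, inside the range of the keratin-expressing tumors for both genes.

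Krt19, the other simple type I keratin, divided the keratin-expressing tumors among themselves. It measured 205, 32.8 and 151 TPM in MP4, MP5 and MP9, but 2.10, 4.95 and 0.352 TPM in MP1, MP2 and MP8. In the keratin-negative tumors it measured 0.307 TPM in MP3 and 0 in MP6, MP7 and MP10. The boundary between the classes therefore rested on 4 reads in MP8 and 5 reads in the deeper library of MP3, and the classes overlapped after median-of-ratios scaling and after quantile normalization. Keratin-expressing by Krt8 was thus not the same as keratin-expressing by Krt19, since MP8 had 72.1 TPM of Krt8 with almost no Krt19.

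Epcam, which joins epithelial cells, was low throughout. It measured 10.7, 2.29, 15.7, 3.49, 1.76 and 4.43 TPM in MP1, MP2, MP4, MP5, MP8 and MP9, against 0.615, 0.348, 0.405 and 1.26 TPM in MP3, MP6, MP7 and MP10. The difference was 1.87 ± 0.45 (SE, n = 6 and 4) on the log2(TPM + 1) scale, and every tumor was below the WT mean of 41.5 TPM. Cdh1, the gene of E-cadherin, was lower still. It reached 7.15 TPM in MP1 and 1.38 TPM in MP4, and lay between 0.197 and 0.518 TPM in the other keratin-expressing tumors and between 0 and 0.281 TPM in the keratin-negative tumors, against 11.3 TPM in WT ovaries. Epcam and Cdh1 were thus below whole ovary in every keratin-expressing tumor, Krt19 was so in 4 of 6 (MP1, MP2, MP5 and MP8), and the class is called by its keratins for that reason.

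**Figure D1:**
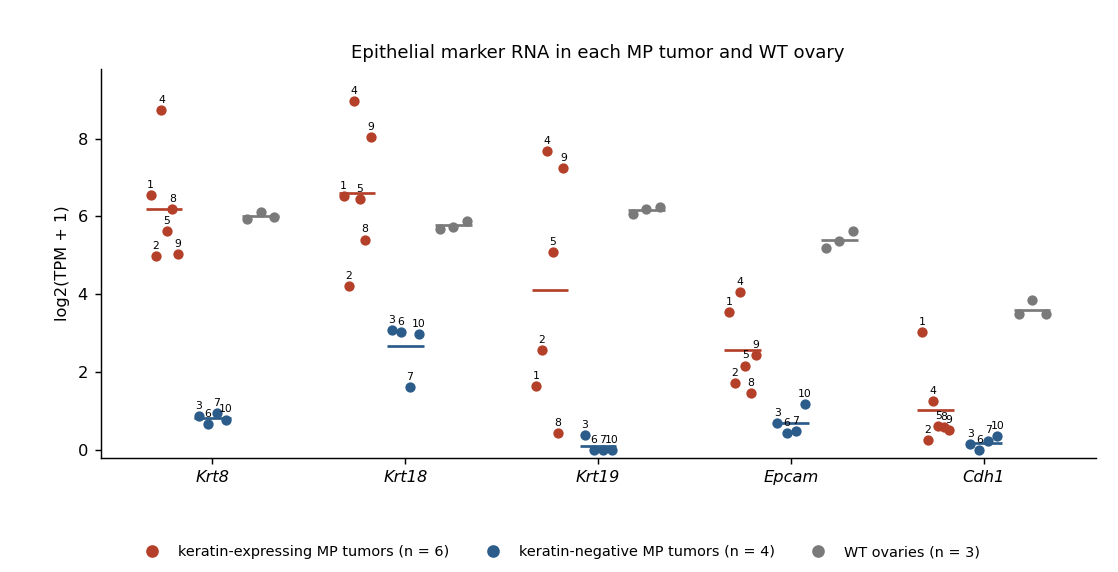
RNA of 4 marker genes and Cdh1 as log2(TPM + 1), with each MP tumor a numbered point, WT ovaries in gray and the mean of each group as a bar. Krt8 was used to form the classes. Krt18 stayed apart in every tumor, Krt19 was near 0 in MP8 as in the keratin-negative tumors, and Epcam and Cdh1 were below WT ovaries in all 10 tumors.

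Few other genes followed the split. Of 15832 genes with at least 1 TPM in at least 3 tumors, Krt8 left out, 24 (0.152%) had every tumor of 1 class above every tumor of the other and class means at least 1 apart on the log2(TPM + 1) scale. They were 17 genes higher in keratin-expressing tumors (0.107%) and 7 genes lower (0.0442%), and 21 of the 24 code for proteins. Of the 17 higher genes, 10 had no keratin-negative tumor at 1 TPM and so passed the filter only through the class where they are high, as did 1 of the 7 lower genes, and these counts describe the genes without supporting the split. A further 15 genes, 3 higher and 12 lower, separated the classes by a smaller difference, so that 39 genes (0.246%) showed no overlap, 20 higher (0.126%) and 19 lower (0.12%). Without the demand for separation, 6.88% of genes differed by at least 1 (4.38% higher and 2.5% lower), so large differences between class means mostly came with overlapping tumors. The difference between the classes made up 7.33% of the spread of log2(TPM + 1) over all genes and tumors, and the classes overlapped on each of the first 5 principal components. How many genes another division of the tumors into classes of the same sizes would separate was not counted. No P value is given for any gene because the tumors were sorted by an RNA from the same libraries. Each project held both classes, so a gene without overlap has the same direction within every project by rule.

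Scaling decided part of this list. Of the 24 genes, 10 (8 higher and 2 lower) also separated the classes by at least 1 under both median-of-ratios scaling and quantile normalization. The share of called genes that were higher was 70.8% in TPM, 65.0% under median-of-ratios scaling (26 higher, 14 lower) and 44.7% under quantile normalization (21 higher, 26 lower). Read depth limited others. Every tumor of the higher class held at least 10 reads for 6 of the 17 higher genes and 6 of the 7 lower genes, and 4 higher genes had a single read in at least 1 of their tumors. Krt18, Dpp4, Cd44 and Mapk12 (higher) and Dpysl4 (lower) met both conditions. Of the 17 higher genes, 11 remained called without MP4, 12 without MP5 and 12 without MP9, and 16 without MP2, where 55 genes were called higher. Leaving out a tumor cannot make separated classes overlap. A gene could thus lose its call only through the filter, applied again each time, or the difference of at least 1.

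**Figure D2:**
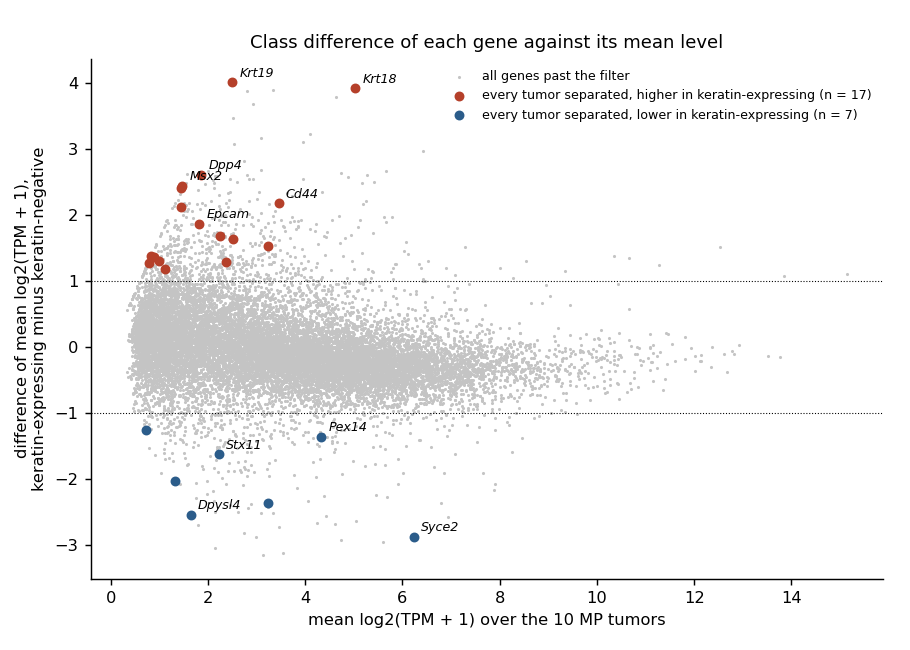
Each point is 1 of 15832 genes, with its mean log2(TPM + 1) over the 10 tumors on the horizontal axis and the class difference (keratin-expressing minus keratin-negative) on the vertical axis, and dotted lines mark differences of 1 and -1. Red and blue points are the 17 and 7 genes with no overlap between the classes, and many gray points lie as far from 0 with overlapping tumors.

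Among cell-surface proteins, Dpp4 and Cd44 were higher in the keratin-expressing tumors. Dpp4, a peptidase of the cell surface also known as CD26, measured 0.881, 2.25, 15.95, 9.63, 1.84 and 56.5 TPM in MP1, MP2, MP4, MP5, MP8 and MP9, against 0.0722, 0.337, 0.327 and 0.203 TPM in MP3, MP6, MP7 and MP10. It differed by 2.61 ± 0.77 on the log2(TPM + 1) scale, by 1.21, 3.33 and 3.34 within projects 1, 2 and 3, and by 2.85 without MP2. Cd44, the receptor for hyaluronan, measured 6.55, 10.7, 35.0, 27.8, 45.3 and 14.3 TPM, against 2.96, 4.30, 2.98 and 3.61 TPM in the same order of tumors. The keratin-negative tumors held a narrow range of Cd44, all below the WT mean of 13.6 TPM, as were MP1 and MP2, whereas MP4, MP5, MP8 and MP9 were above it. The difference was 2.18 ± 0.43, and 1.24, 2.60 and 2.64 within the 3 projects. The aminopeptidase gene Xpnpep2 reached 25.2 TPM in MP9, lay between 0.0335 and 2.47 TPM in the other keratin-expressing tumors and had 0 reads in all 4 keratin-negative tumors, but its lowest tumors held 1 read.

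Mapk12, the p38-gamma kinase, was far higher in MP9 than elsewhere. It measured 6.63, 7.72, 12.7, 11.7 and 9.94 TPM in MP1, MP2, MP4, MP5 and MP8 and 66.7 TPM in MP9, against 2.48 to 6.02 TPM in the keratin-negative tumors. The difference was 1.54 ± 0.51 on the log2(TPM + 1) scale and 1.09 without MP9. The nearest tumors of the classes, MP1 and MP6, differed 1.10-fold. Trf, the iron carrier transferrin, ranged from 3.05 to 35.8 TPM (median 5.33) against 1.37 to 2.36 TPM, with the highest values in MP9 and MP5. Cib2, a calcium- and integrin-binding protein, measured 2.76 to 38.8 TPM against 1.44 to 2.73 TPM, and its nearest tumors differed by only 1.01-fold. Trf and Cib2 overlapped under at least 1 of the other scalings.

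Msx2, a homeobox transcription factor counted in the list of epithelial-mesenchymal transition regulators, was not detected in the keratin-negative tumors, with 0 reads in each. In the keratin-expressing tumors it measured 44.9, 6.99 and 45.0 TPM in MP4, MP5 and MP9 but 0.0424, 0.329 and 0.0996 TPM in MP1, MP2 and MP8, where it rested on 1, 6 and 2 reads. Ppp2r2b, a regulatory subunit of protein phosphatase 2A, had the same tumors high, with 13.9, 21.6 and 32.9 TPM in MP4, MP5 and MP9 and 0.105 to 0.587 TPM in MP1, MP2 and MP8, against at most 0.0286 TPM in the keratin-negative tumors. Both genes were thus near the floor of detection in the lower 3 keratin-expressing tumors, and the size of their differences (2.44 ± 1.07 and 2.41 ± 0.94) depends on the pseudocount of 1. Ppp2r2b lost its call under quantile normalization. The remaining 6 higher genes had class means below 10 TPM. They were 4930415O20Rik, Gm11688, Ccl17 (a chemokine), Nsg2 (a vesicle protein of neurons), Adtrp and Gm15201, with differences of 1.18 to 2.12, and each had fewer than 10 reads in at least 1 keratin-expressing tumor. Xpnpep2, these 6 genes and, among the lower genes, Dpysl4, Stx11, Kbtbd13 and Lrp8os3 had class means below 10 TPM, fall outside the naming rule and were named after their values were seen. Gm11688 is a processed pseudogene, whose reads may be shared with its parent gene.

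Of the 7 genes that were lower, Syce2 was the most abundant. It codes for a part of the synaptonemal complex, which holds paired chromosomes in meiosis. Syce2 measured 12.7, 31.8, 22.7, 44.6, 66.7 and 44.9 TPM in MP1, MP2, MP4, MP5, MP8 and MP9, against 417, 94.2, 301 and 315 TPM in MP3, MP6, MP7 and MP10. Every tumor but MP1 was above the WT maximum of 19.2 TPM, so the classes differed in how far they lay above the ovary. The difference was -2.87 ± 0.58, with -4.30, -1.53 and -2.47 within projects 1, 2 and 3, and the classes overlapped under median-of-ratios scaling.

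Dpysl4, of the dihydropyrimidinase-related (CRMP) family, was the gene with the most even separation. It measured 0.721, 0.211, 0.0957, 1.45, 0.519 and 0.629 TPM in the keratin-expressing tumors, in the same order, against 9.30, 9.26, 8.83 and 5.37 TPM in the keratin-negative tumors. The nearest tumors, MP5 and MP10, differed 3.70-fold, and the difference was -2.54 ± 0.24, with -2.84, -2.65 and -2.33 within the 3 projects. WT ovaries averaged 63.0 TPM, so both classes were below normal ovary for this gene.

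The other lower genes came closer to overlap. Pex14, a docking protein of peroxisomal import, measured 3.56 to 23.5 TPM (median 17.4) against 28.9 to 42.2 TPM, and its lowest value was in MP2. Without MP2 its difference was -1.04 in place of -1.36. 1700001O22Rik measured 10.6, 2.13, 1.85, 1.98, 12.5 and 2.43 TPM against 13.5, 32.7, 47.8 and 15.9 TPM, and its nearest tumors, MP8 and MP3, differed 1.08-fold. Stx11, a syntaxin needed for granule release by cytotoxic lymphocytes, measured 0.299 to 4.22 TPM against 5.48 to 12.8 TPM. Kbtbd13, a kelch protein of muscle, measured 0 to 1.06 TPM against 1.56 to 31.4 TPM, with the highest value in MP10. Lrp8os3, a noncoding RNA that starts beside Lrp8, was at 0 to 0.738 TPM against 0.902 to 3.73 TPM, and the strandedness of the counting is not given in the sources used here. Pex14 and 1700001O22Rik overlapped under both other scalings, and Kbtbd13 and Stx11 under median-of-ratios scaling.

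**Figure D3:**
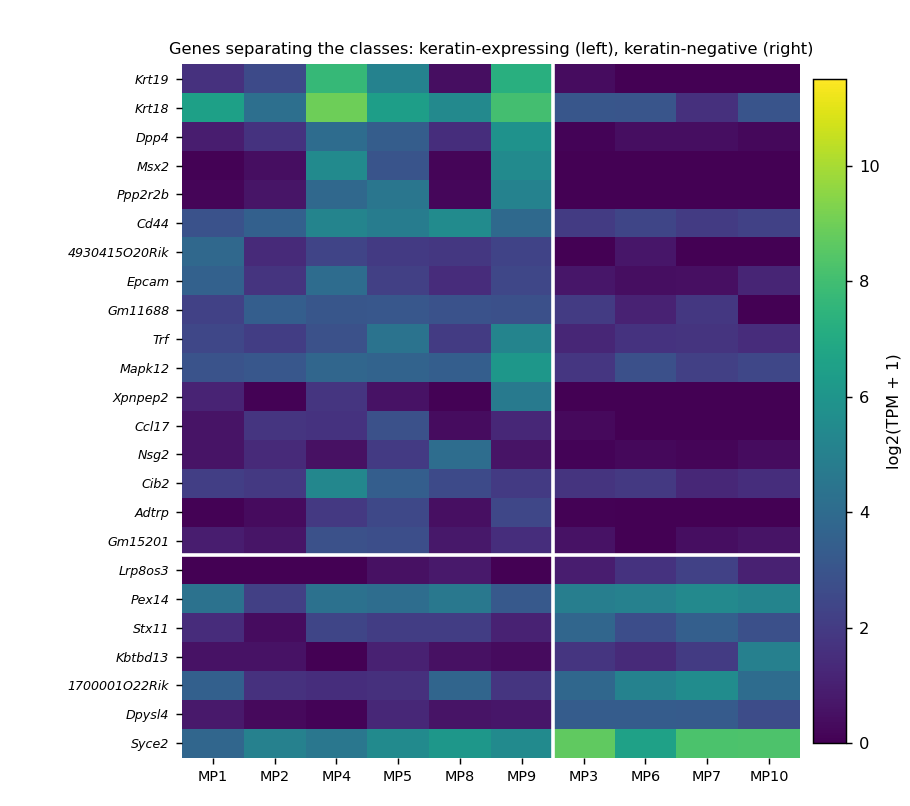
The 24 genes that separated the classes, as log2(TPM + 1) in each tumor on a shared color scale, with keratin-expressing tumors left and keratin-negative tumors right of the white line. Krt19, Msx2 and Ppp2r2b are brightest in MP4, MP5 and MP9, whereas Krt18 and Cd44 are raised in all 6 keratin-expressing tumors and Dpysl4 in all 4 keratin-negative tumors.

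The same 3 tumors, MP4, MP5 and MP9, were the highest of the 10 in 8 of the 17 higher genes, a ranking that was looked for after the values were seen. Over all 15832 genes these tumors took the highest 3 places in 5.8%, but the higher genes were by rule highest in keratin-expressing tumors, and 4 of the 8 reached 1 TPM in exactly 3 tumors and so passed the filter only through MP4, MP5 and MP9. Of the 34 lists, mesothelium had the largest share of members with the pattern, at 8 of 15 past the filter (53.3%). Interferon-stimulated genes were next, at 12 of 25 (48.0%). Mesothelium is the keratin-positive lining of the body cavity and is continuous with the surface of the ovary.

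Mesothelial genes were higher on average in the keratin-expressing tumors, with overlapping tumors. The median difference over the 15 members was 1.67, beside -0.10 over all genes, a value that 29 of the 34 lists exceeded. By at least 1, 10 members were higher and 1 lower, beside 4.38% and 2.5% of all genes. None of the 15 was called, where 0.152% of all genes were. Wt1, a transcription factor of mesothelium, granulosa cells and serous carcinoma, measured 48.5, 163 and 130 TPM in MP4, MP5 and MP9, but 0.135, 3.22 and 2.61 TPM in MP1, MP2 and MP8. The keratin-negative tumors held 1.71, 24.5, 2.60 and 1.76 TPM in MP3, MP6, MP7 and MP10, so MP6 was above 3 keratin-expressing tumors. Upk3b, a uroplakin of mesothelial cells named here after its values were seen, measured 71.6, 75.9 and 335 TPM in MP4, MP5 and MP9 and at most 1.48 TPM in the other 7 tumors. Aldh1a2, an enzyme of retinoic acid synthesis, measured 781, 810 and 702 TPM in these 3 tumors, 3.99, 7.39 and 78.5 TPM in MP1, MP2 and MP8, and 0.302, 442, 0.547 and 87.5 TPM in MP3, MP6, MP7 and MP10. Aldh1a1, its relative, ran the other way, with a difference of -1.06 and 2 of its 3 highest values in keratin-negative tumors. The median of the list was 0.45 in project 1, 1.93 in project 2 and 2.11 in project 3, and MP4, MP5 and MP9 all lie in projects 2 and 3.

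Genes of the Müllerian tract and of ovarian carcinoma had a median difference of 1.65 over 10 members past the filter, with 7 higher by at least 1 (4.38% of all genes) and 0 called (0.152%). Emx2, a homeobox gene of the urogenital tract, measured 0.324, 6.23, 20.04, 71.4, 20.5 and 228 TPM in the keratin-expressing tumors, against 0.152, 0.237, 0.550 and 0.643 TPM, and only MP1 lay within the range of the other class. Wfdc2, which encodes the ovarian cancer serum marker HE4, was named after its values were seen. It measured 43.3, 41.4, 4.52, 68.0, 9.74 and 87.1 TPM, against 0.901, 0, 7.24 and 0 TPM, and MP4 alone was below MP7. Folr1, the folate receptor, was spread over both classes, with 14.5 to 321 TPM against 3.67 to 208 TPM. Pax8, a marker of the fallopian tube lineage, was at 23.2 TPM in MP9 and 1.57 TPM in MP5 and at most 0.0945 TPM elsewhere, and Muc16, which encodes CA125, was at 3.30 TPM in MP9 and at most 0.540 TPM in the other 9 tumors. Krt7, a keratin of the same tract, measured 7.55, 0.281, 9.01, 2.13, 3.19 and 12.1 TPM against 0.291, 0.352, 2.11 and 0.182 TPM, and MP2 was in the range of the keratin-negative tumors.

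**Figure D4:**
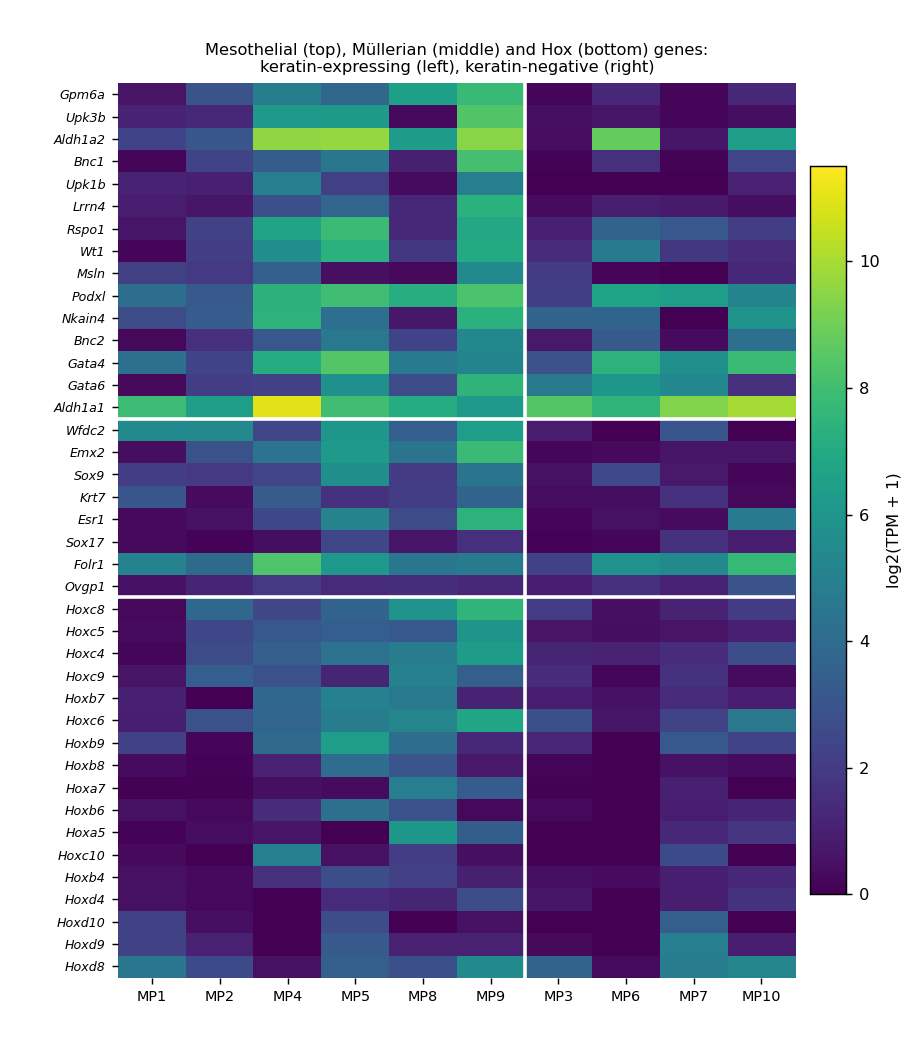
Mesothelial, Müllerian and Hox genes past the filter as log2(TPM + 1) in each tumor, with keratin-expressing tumors left of the white line. MP4, MP5 and MP9 are bright for most mesothelial genes, MP1 and MP2 are dark for many of them, and MP6 shows Wt1 and Aldh1a2.

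Keratins other than Krt8 were higher by sum in the keratin-expressing tumors. Over 17 keratin genes their TPM summed to between 47.8 and 744 (median 135) in keratin-expressing tumors and between 10.7 and 22.98 (median 13.5) in keratin-negative tumors. Krt18 and Krt19 are part of these sums, and the other keratins were not summed alone. Krt18 and Krt19 were the called members among 8 past the filter, beside 0.152% of all genes. By at least 1, 6 of the 8 were higher, beside 4.38% of all genes. Of 17 members of the adhesion and tight junction list past the filter, Epcam was the called gene, beside 0.152% of all genes. By at least 1, 7 were higher and 1 lower, beside 4.38% and 2.5% of all genes, and the median was 0.82. Desmosome genes (median 0.48, and 0.81 without MP2), epithelial transcription and splicing factors (0.41, and 0.62 without MP2) and epithelial proteases and trafficking genes (0.46) held 0 called members of 13, 7 and 14, where 0.152% of all genes were called. By at least 1, 5, 2 and 6 of these members were higher, beside 4.38% of all genes, and 0, 1 and 0 were lower, beside 2.5%. The transcription and splicing factors had medians of -0.03, 1.13 and -0.19 within projects 1, 2 and 3, and their summed TPM was highest in the keratin-negative tumor MP10, at 329, against at most 45.4 in keratin-expressing tumors. Elf5, an ETS factor of glandular epithelium, made up 275 TPM of it and was at 0 to 0.320 TPM in the other 9 tumors. Esrp2, a splicing regulator of epithelial cells, measured 0.449 to 14.4 TPM against 0.710 to 7.41 TPM, and Pkp2 of the desmosome was highest in the keratin-negative tumor MP10, at 147 TPM.

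Of 12 transition regulators past the filter, Msx2 was called (0.152% of all genes). It was the member higher by at least 1 (4.38% of all genes), and 1 was lower by at least 1 (2.5%). The median was 0.19, or 0.35 without MP2, and 0.06, -0.52 and 0.68 within projects 1, 2 and 3. Zeb1, a repressor of epithelial genes, measured 1.54 to 30.3 TPM (median 8.06) in keratin-expressing and 1.94 to 19.1 TPM (median 8.96) in keratin-negative tumors. Its relative Zeb2 differed by -0.85, with 0.523 to 9.59 TPM against 2.37 to 25.6 TPM, and the classes overlapped. Vim, the mesenchymal intermediate filament vimentin, measured 65.6 to 708 TPM against 50.6 to 387 TPM, and N-cadherin (Cdh2) measured 0.155 to 38.4 TPM against 0.325 to 18.2 TPM. Over 25 mesenchymal markers the median difference was 0.54, with 4 higher and 0 lower by at least 1 (4.38% and 2.5% of all genes) and 0 called. It was 0.93 without MP2, and -0.11, 1.61 and 0.94 within projects 1, 2 and 3.

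Hox genes, which set position along the body, had a median difference of 1.28 over 17 members past the filter, beside -0.10 over all genes. By at least 1, 11 were higher and 0 lower, beside 4.38% and 2.5% of all genes, and 0 were called, beside 0.152%. Hoxc8 measured 0.197, 14.0, 4.45, 11.7, 57.6 and 185 TPM in the keratin-expressing tumors, against 3.22, 0.376, 1.17 and 2.95 TPM, and MP1 was the lowest of all 10 tumors. Within project 1, which holds MP1, the median of the list was 0.04, against 2.58 and 1.46 in projects 2 and 3. Hoxc6 and Hoxd8 overlapped widely, and Hoxd8 was 21.95 TPM in MP1 and 36.1 TPM in MP10.

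Antigen presentation by MHC class II had a high median that did not hold in each project. The median difference over 7 members was 1.73, with 1.82 in project 1, 4.89 in project 2 and -0.40 in project 3. Cd74, the invariant chain, measured 98.2, 3.06, 302, 1409, 28.7 and 144 TPM in keratin-expressing tumors and 4.04, 11.3, 6.73 and 728 TPM in keratin-negative tumors, so MP10 was second only to MP5. These genes are also those of antigen-presenting cells. Summed over 19 macrophage and dendritic cell genes, TPM was 1001 to 2878 (median 1822) against 786 to 4076 (median 1709), and the part of such cells in the result was not tested.

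Cell division genes were slightly lower in the keratin-expressing tumors. Of 30 members, 29 had a lower mean, where 41.2% of all genes had a higher mean. Within all 3 projects 13 were lower, where 14.3% of all genes were. However, 0 were called, beside 0.152% of all genes, and 1 was lower by at least 1, beside 2.5%. The median was -0.57, beside -0.10 over all genes, and -0.41 without MP2, and it was -0.34, -1.26 and -0.12 within projects 1, 2 and 3. The summed TPM of the list was lowest in MP4 (1372) and MP2 (1501), against 2900 to 5092 in the other 8 tumors. Pcna, the sliding clamp of DNA replication, measured 101 to 504 TPM against 275 to 576 TPM, and the proliferation marker Mki67, named after its values were seen, differed by only -0.10. Without MP2 the median over all genes moved from -0.10 to 0.13, so cell division genes were lower against that background in either case.

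RNA of Myc, Trp53 and Cdkn2a overlapped between the classes. Myc measured 7.09 to 298 TPM (median 62.6) in keratin-expressing and 15.3 to 419 TPM (median 255) in keratin-negative tumors. The table holds the mouse gene, and how reads of the MYC transposon were counted is not given in the sources used here. Trp53 measured 4.30 to 26.0 TPM against 6.29 to 187 TPM, and Cdkn2a, the cell cycle inhibitor gene, measured 124 to 763 TPM against 232 to 914 TPM, far above the 3.38 TPM of WT ovaries in both classes.

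Markers of other cell types overlapped between the classes, by the sum of each list. Leukocyte genes (8 genes) summed to 46.3 to 245 TPM against 54.4 to 119 TPM, T and NK cell genes (20 genes) to 7.14 to 29.7 TPM against 2.62 to 26.97 TPM, and endothelial genes (16 genes) to 43.4 to 587 TPM against 36.7 to 318 TPM. Ptprc, the common leukocyte antigen, measured 0.782 to 3.06 TPM against 0.562 to 1.65 TPM, and Pecam1, the endothelial adhesion molecule, 1.70 to 42.5 TPM against 1.92 to 21.4 TPM. Smooth muscle genes (12 genes) summed to 108 to 2551 TPM against 112 to 709 TPM, and granulosa and Sertoli cell genes (19 genes) to 330 to 3706 TPM against 875 to 2245 TPM. None of these lists held a called member, where 0.152% of all genes were called. Skeletal muscle genes stood out in MP1. They summed to 1844 TPM there, with a range of 9.21 to 1844 TPM (median 30.1) in keratin-expressing and 63.0 to 423 TPM in keratin-negative tumors, and the part of these cell types in the differences above was not tested.

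**Figure D5:**
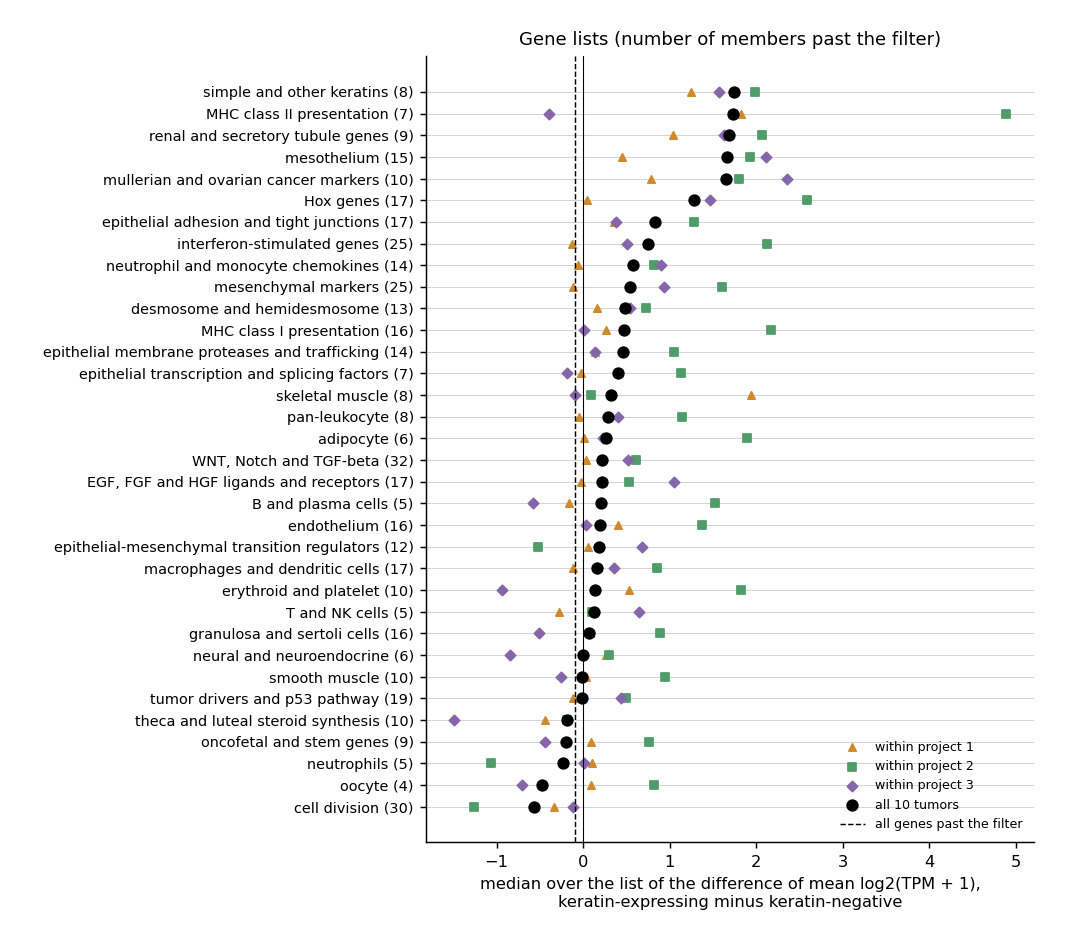
Median class difference (keratin-expressing minus keratin-negative, in log2(TPM + 1)) of each of 34 gene lists, with black points for all 10 tumors, colored points for the 3 projects and a dashed line for all genes past the filter. Keratins, mesothelial, Müllerian and renal or secretory genes have positive medians in every project. So do the adhesion, desmosome, protease, MHC class I, endothelial, adipocyte, WNT and Hox lists. MHC class II changes sign in project 3, and cell division has the lowest black point.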

How the data were processed

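Bulk RNA of 10 MP tumors and 3 WT ovaries had been sequenced as polyA-selected TruSeq libraries with 76-bp single-end reads. The authors deposited TPM values per gene and library, with gene lengths, and replicates were not pooled. The submitters' processing notes name FastQC 0.11.5, Trimmomatic 0.36, STAR 2.5.3a, featureCounts 1.6.3 and the builds mm10 and GRCm38, whereas the extract protocol names HTSeq, RPKM and a human build. The table holds 53465 mouse genes, of which 96.2% carry the coordinates of GENCODE release M21 on GRCm38. Samples were matched to columns by the description label, and 0 columns were left unused.

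Tumors were classed by Krt8 TPM (at least 10, or below 1). Read counts were recovered by multiplying TPM by length, which gave integer multiples (within 0.01) of 1 unit per library. In the tumors 1 read stood for 0.114 to 0.790 TPM in a 1-kb gene, which limits values below about 1 TPM. Values were compared as log2(TPM + 1), a scale on which differences of low genes are understated, for genes with at least 1 TPM in at least 3 tumors. A gene was called when the classes did not overlap and their means differed by at least 1. No test was run, because the classes were cut from a readout of the same libraries. Errors are SE of the difference between class means, with each tumor as 1 replicate.

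The members of the classes and the 34 gene lists (645 genes, 642 in the table, 437 past the filter) were chosen with earlier results of these data known. Named genes were the markers (Krt8, Krt18, Krt19 and Epcam), the called genes with a mean of at least 10 TPM in the higher class (up to 15 each way, same direction in all 3 projects), the called members of each list (up to 5 each way) or, without any, the 3 most abundant members, and Trp53, Myc, Cdkn2a, Wt1, Pax8, Muc16, Krt7, Zeb1, Zeb2, Vim, Cdh1, Cdh2, Ptprc and Pecam1. The same direction in all 3 projects holds for any called gene by rule, since each project held both classes. Alternatives varied the pseudocount, filter, scaling, project handling, summary, class-defining gene and tumors included. The calling script was tested on simulated data. Promoter windows of 250 bases came from RefSeq (GRCm38.p6). Python 3.11.15, pandas 2.3.3, numpy 2.4.6 and matplotlib 3.10.9 were used.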

Additional observations from a re-analysis of the deposited data

Results flagged for a closer look

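Each of 39 genes was checked in each class for a tumor far from the rest by Dixon's ratio. They were the called genes, the genes named whatever their values and Krt8, which formed the classes. The ratio flags about 1 in 20 groups by chance, or 3.9 of the 78 groups checked. It flagged 14.

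In the keratin-expressing tumors MP9 was the high tumor in 4 of them. Mapk12 was at 66.7 TPM there, with 12.7 TPM in the next tumor, Xpnpep2 at 25.2 TPM (next 2.47 TPM), Pax8 at 23.2 TPM (next 1.57 TPM) and Muc16 at 3.30 TPM (next 0.540 TPM). Cdh1 was flagged in MP1, at 7.15 TPM against 1.38 TPM in the next tumor.

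In the keratin-negative tumors Wt1 was at 24.5 TPM in MP6 (next 2.60 TPM) and Krt7 at 2.11 TPM in MP7 (next 0.352 TPM). Krt18 was low in MP7, at 2.06 TPM with 6.89 TPM in the next tumor, and Dpysl4 was low in MP10, at 5.37 TPM with 8.83 TPM in the next. The remaining 5 were genes at 0 in the other 3 keratin-negative tumors, where any read sets a tumor apart. These were Krt19 (0.307 TPM), Ppp2r2b (0.0286 TPM), Ccl17 (0.222 TPM) and Adtrp (0.0398 TPM), all in MP3, the keratin-negative library with most reads, and 4930415O20Rik (0.637 TPM) in MP6.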

How the results depend on the processing

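The counts of 17 higher and 7 lower genes depended on the processing. Over 20 settings, the differences of 128 named genes were recomputed. These genes included Krt8, which formed the classes, and the called genes, which were picked for their separation. Of 2560 recomputed differences, 2509 moved by less than 1 SD of the tumors and 51 moved more. Of these 51, 19 moved with a pseudocount of 0.1 and 32 when the classes were cut by Epcam or Krt19 in place of Krt8. Medians of the 34 lists moved by less than that SD in all 136 recomputations, a wide limit beside most medians. Their sign changed for 4 lists without MP2 (theca and luteal genes from -0.18 to 0.27), 3 under median-of-ratios scaling, 3 with the mean of the differences within projects and 6 in projects 2 and 3 alone (oocyte genes from -0.47 to 0.10).

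A filter of at least 5 TPM left 10 higher genes. Median-of-ratios scaling gave 26 higher and 14 lower genes, of which 11 and 2 were among the main ones, and quantile normalization gave 26 lower genes, sharing 5 (and 8 of the higher). Leaving out each tumor in turn gave 15 to 55 higher and 7 to 92 lower genes. Fewer tumors make separation easier by construction, whereas the filter, applied again each time, can remove genes. The higher count was 46, 55, 37, 19, 15, 45, 44, 48, 23 and 51 without MP1 to MP10 in order. The lower count was 39, 7, 92, 17, 15, 41, 24, 32, 12 and 18 in the same order. Classes cut by Epcam (MP1 and MP4 against MP3, MP6 and MP7) gave 490 higher and 349 lower genes, and classes cut by Krt19 (MP4, MP5 and MP9 against MP3, MP6, MP7, MP8 and MP10) gave 834 and 233. A cut by Krt18 gave no value because 0 tumors were below 1 TPM. Projects 2 and 3 alone, a setting chosen after seeing the data that drops MP1, MP2 and MP3, gave 237 higher and 98 lower genes. Of the main genes, 15 of the 17 and 7 of the 7 were kept. Separated genes stay separated in any subset of the tumors, so they could be lost only through the filter or the size of the difference. The cause of the changes in these counts was not tested. No paired analysis was possible because each tumor has a replicate number of its own and the classes share none. The mean of the differences within the 3 projects, with the same demand for no overlap, gave 17 higher and 8 lower genes. Depth limits the low genes, since 11 higher genes rest on fewer than 10 reads in at least 1 keratin-expressing tumor.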

Other observations

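Genes of renal and secretory tubules, a list that includes Wfdc2, had a median difference of 1.69 over 9 members past the filter, with 5 higher by at least 1 (4.38% of all genes) and 0 called (0.152%), and the median was 1.04, 2.07 and 1.62 within projects 1, 2 and 3. Its most abundant members did not follow the keratins. Clu, a secreted chaperone, measured 12.4 to 1421 TPM in keratin-expressing and 33.6 to 564 TPM in keratin-negative tumors, Spp1 (osteopontin) 74.4 to 586 TPM against 24.6 to 245 TPM, and complement C3 1.64 to 371 TPM against 2.22 to 33.6 TPM. Interferon-stimulated genes had a median of 0.75 over 25 members, but -0.13 within project 1 and 2.12 and 0.51 within projects 2 and 3. Their summed TPM ran the other way, with 213 to 1461 (median 793) in keratin-expressing and 807 to 1612 (median 1049) in keratin-negative tumors. In 12 of these 25 genes MP4, MP5 and MP9 took the highest 3 places, as in 8 of the 15 mesothelial genes, beside 5.8% of all genes.

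Oncofetal genes varied between single tumors. H19, an imprinted growth-linked noncoding RNA, was at 3856 TPM in MP4 and 1703 TPM in MP5 and between 14.0 and 307 TPM in the other 8 tumors. Dlk1, an imprinted Notch-like protein, was at 289 TPM in MP9 and 202 TPM in MP10, 1 tumor of each class. Median-of-ratios scaling added 27 genes to the called ones, among them Elf3, an epithelial transcription factor that was 1.84 higher on that scale, and the mesothelial gene Lrrn4, which was 2.09 higher. Both were picked after their values were seen.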
